A study of Mus musculus with 24 samples.

Results

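Transcripts of the cells that build brain blood vessels and the coverings of the brain were followed in whole-brain RNA-seq libraries as 34 genes, out of 52636 gene identifiers counted. The genes were chosen by name as known markers, with earlier results of these data known. They form 3 classes, which are reported apart: 13 endothelial genes, 8 mural genes and 13 genes of meningeal fibroblasts. All 34 were detected and passed the low-count filter, which left 19726 genes for testing.

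The libraries come from 24 mice in 4 groups of 6, from a study of the glutamate transporter EAAT2 (gene Slc1a2) in a pair of Cre lines. The groups are syn-Cre+ EAAT2−/−, syn-Cre− EAAT2+/+, gfap-Cre+ EAAT2Δ/+ and gfap-Cre− EAAT2+/+. They are called syn Cre+, syn Cre−, gfap Cre+ and gfap Cre− from here on. The synapsin promoter is used to drive Cre recombinase in neurons and the Gfap promoter to drive it in astrocytes, so neither line is aimed at vessel or meningeal cells. The Cre+ genotypes differ in more than the promoter, since they are written −/− in the syn line and Δ/+ in the gfap line. The sources used here do not give age, sex, strain background or the deleted exon. The labels name the line under "cell type" while the tissue is brain, and every library held markers of several brain cell types: the neuronal gene Snap25 stood at 2030 to 3056 CPM (each gene's share of the counts, per scaled library size) and the astrocyte gap junction gene Gja1 at 191.1 to 265.7 CPM.

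Gene counts per library summed to 41596313 to 69652824, with a median of 50985761. Slc1a2, counted over the whole gene, ranged from 2615 to 3234 CPM in libraries labelled syn Cre+ and from 3225 to 3460 CPM in those labelled syn Cre−. It ranged from 3042 to 3853 CPM in libraries labelled gfap Cre+ and from 2493 to 3979 CPM in those labelled gfap Cre−. Neither difference passed edgeR's quasi-likelihood test (log2 fold change −0.14, SE 0.08, and −0.02, SE 0.08, adjusted p = 1.00 for both), so a Cre direction below is one between libraries as labelled. The choroid plexus transcript Ttr exceeded 1000 CPM in 6 libraries, syn Cre+ 2, 5 and 6 and syn Cre− 3, 4 and 6, and in no gfap library. Numbers after a group name are replicate numbers, which only name a mouse and pair nothing.

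Endothelial cells line brain vessels and, joined by tight junctions and fitted with carriers and efflux pumps, form the blood-brain barrier. Mural cells wrap the endothelium: pericytes on capillaries and contractile smooth muscle cells on arterioles and arteries. Meningeal fibroblasts form the membranes around the brain and follow larger vessels inwards, where they lay down collagens, proteoglycans and a layer of solute transporters. Astrocyte endfeet, which carry part of the brain's EAAT2, touch the basement membrane of these vessels.

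Set per kilobase of merged exon, over all 24 libraries, the most abundant endothelial transcripts were Slc2a1, the glucose carrier of the barrier (21.5 CPM per kb), Cldn5, a tight junction protein (19.8), and Ly6c1, a surface antigen (12.4). The lowest was Emcn, a sialomucin of veins and capillaries, at 0.839 CPM per kb. Mural transcripts were led by Vtn, the adhesive protein vitronectin (30.8 CPM per kb), and Rgs5, a regulator of G-protein signalling in pericytes (22.7). The pericyte growth factor receptor gene Pdgfrb stood at 4.47 CPM per kb. Contractile smooth muscle genes were scarcer, with Acta2 at 1.87 and Myh11 at 0.534 CPM per kb. Tagln, another of them, gave 157 counts in all libraries together, and it overlaps Pcsk7 on the opposite strand. Among the meningeal genes the proteoglycan Dcn (11.2 CPM per kb) and the basement membrane collagens Col4a2 (9.76) and Col4a1 (7.13) were high. Fibrillar collagens were low on the same scale: Col1a1 stood at 0.741, Col1a2 at 0.643 and Col3a1 at 0.152 CPM per kb. In bulk tissue, a lower level can mean fewer cells of a type or less RNA in each, which cannot be told apart.

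**Figure D1:**
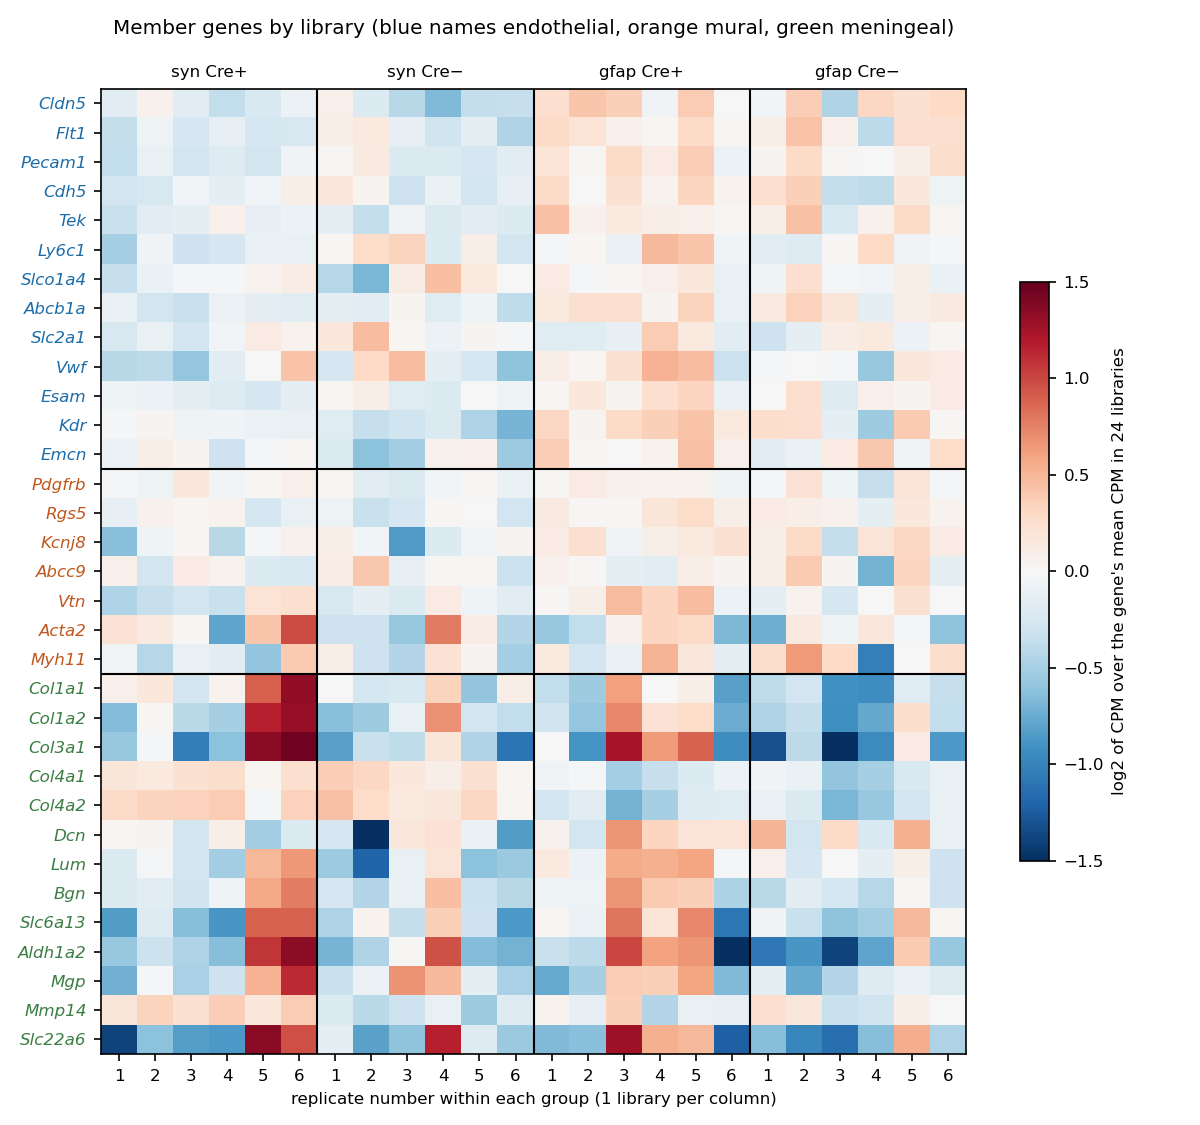
Heat map of 33 of the 34 genes (rows; Tagln, with 157 counts, is not drawn) in 24 libraries (columns), as log2 of CPM over the gene's mean CPM; colours saturate at 1.5 in either direction. Columns syn Cre+ 5 and 6, syn Cre− 4, gfap Cre+ 3 and gfap Cre− 5 are redder than the rest of their group across most meningeal rows, while endothelial rows are paler, and bluer in the syn line than in the gfap line.

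The classes differed in how much mice of a group varied. The SD of log2 CPM within groups had a median of 0.206 over endothelial genes, 0.257 over mural genes and 0.527 over meningeal genes, against 0.183 over all genes tested. Within the meningeal class the spread fell into a steady and a variable set, described here after their values were seen. Col4a1 (SD 0.169), Col4a2 (0.194) and Mmp14 (0.202) were steady. The other 10 had an SD of at least 0.357, up to 0.862 for Slc22a6, an organic anion transporter; they include Mgp, the mineralization inhibitor matrix Gla protein (0.527), and Slc6a13, a GABA transporter of meningeal cells (0.609).

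The variable meningeal genes were high in the same mice. Replicate syn Cre+ 6 had the highest value of its group for 8 of 13 meningeal genes, and among all genes tested it was highest for 20.3%. In the syn Cre− group replicate 4 was highest for 10 of 13 (16.5% of all genes). Replicate gfap Cre+ 3 led for 9 of 13 (21.1%) and gfap Cre− 5 for 10 of 13 (10.3%).

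Aldh1a2, which makes retinoic acid in meningeal cells, shows the pattern. Its syn Cre+ values were 3.28, 3.88, 3.53, 3.12, 10.3 and 12.3 CPM in replicates 1 to 6, and its syn Cre− values were 3.00, 3.55, 4.91, 9.44, 3.09 and 2.99 CPM. The gfap Cre+ mice stood at 3.86, 3.70, 9.77, 7.40, 7.68 and 1.72 CPM and the gfap Cre− mice at 2.31, 2.65, 1.87, 2.82, 6.39 and 3.27 CPM. In each group 1 to 3 mice lay well above the others, so the groups overlapped almost fully.

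Col1a2, a chain of the main fibrillar collagen, ran from 5.11 to 19.7 CPM in syn Cre+ mice (median 7.07), with replicates 5 and 6 both above the next mouse at 8.10. It ran from 5.18 to 12.9 CPM in syn Cre− mice (median 6.38), 4.78 to 13.1 in gfap Cre+ mice (median 7.88) and 4.22 to 9.57 in gfap Cre− mice (median 6.01). Dcn followed this order only in part. It was highest of its group in syn Cre− 4 (76.5 CPM), gfap Cre+ 3 (103.8) and gfap Cre− 5 (94.85). In syn Cre+ mice, however, replicate 5 was lowest at 45.8 CPM and replicate 6 stood at 56.5, below replicate 4 at 70.5. The lowest Dcn value, 10.7 CPM in syn Cre− 2, stood apart from 36.7 to 76.5 CPM in the other 5 mice of that group.

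Markers of border macrophages, the immune cells of meninges and perivascular spaces, were high in many of the same libraries. Their 11 genes, none of which was at 0 in all libraries of a group, summed to 24.8 and 32.6 CPM in syn Cre+ 5 and 6 and to 7.29 to 10.7 in the other 4 mice. In syn Cre− mice they summed to 10.4 to 22.5 CPM, where replicate 3 was highest and replicate 4, the meningeal leader, next at 21.25. In gfap Cre+ mice they summed to 4.92 to 20.3 CPM, where replicates 3, 4 and 5 were the 3 highest. In gfap Cre− mice the sums were 6.06 to 11.9 CPM, where replicate 5 was highest. Their part in the meningeal values was not tested.

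**Figure D2:**
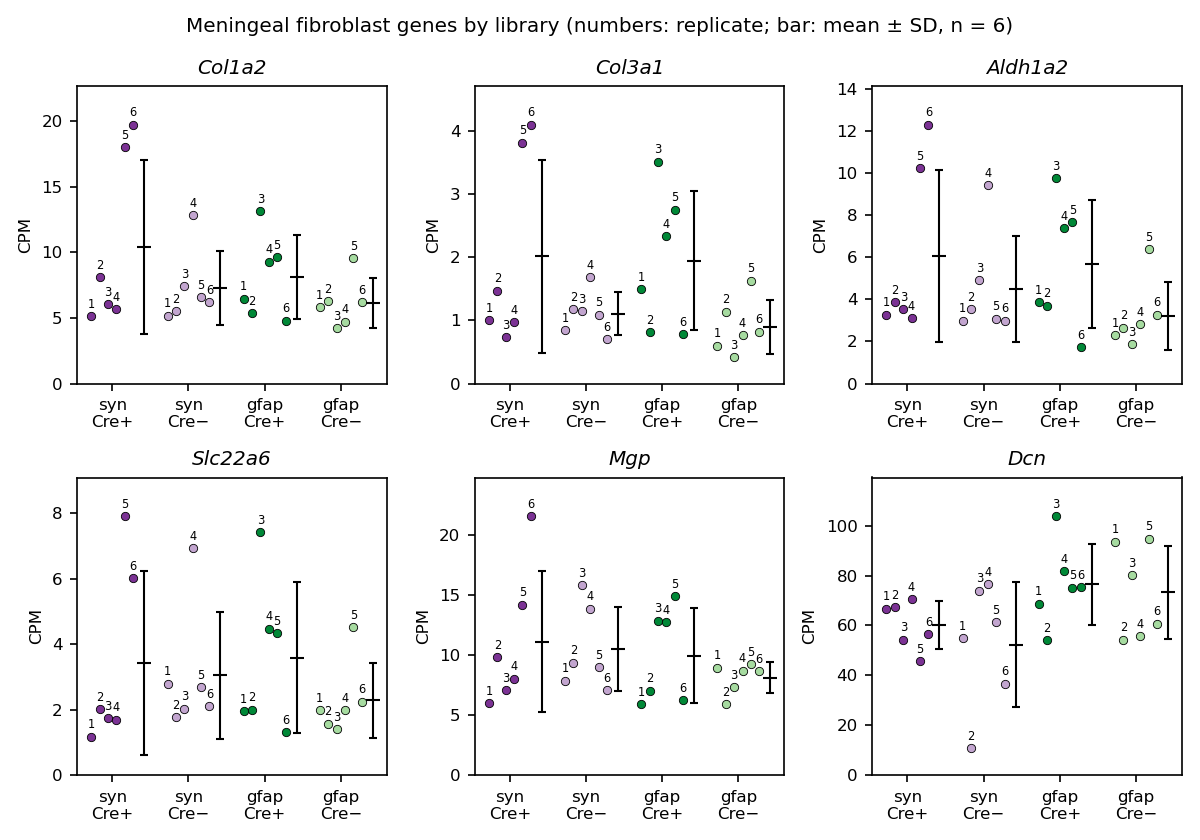
CPM (y axis) of 6 meningeal fibroblast genes in each library, by group (x axis); numbers are replicates and bars give mean ± SD (n = 6). Points for syn Cre+ 5 and 6 and for gfap Cre+ 3 to 5 lie above the rest of their groups for Col1a2, Col3a1, Aldh1a2, Slc22a6 and Mgp, while Dcn has its lowest point in syn Cre− 2.

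The proximal promoters of a fibrillar pair that was high in the same mice are shown for comparison of their sequence. They come from RefSeq (GRCm38.p6), 250 bases before to 50 after the start on the gene's own strand, for Col1a2 (chr6:4505368-4505667, plus strand) and Col3a1 (chr1:45311288-45311587, plus strand). Capitals mark the CCAAT box, the GC box GGGCGG and the TATA sequence TATAAA on either strand.
Col1a2: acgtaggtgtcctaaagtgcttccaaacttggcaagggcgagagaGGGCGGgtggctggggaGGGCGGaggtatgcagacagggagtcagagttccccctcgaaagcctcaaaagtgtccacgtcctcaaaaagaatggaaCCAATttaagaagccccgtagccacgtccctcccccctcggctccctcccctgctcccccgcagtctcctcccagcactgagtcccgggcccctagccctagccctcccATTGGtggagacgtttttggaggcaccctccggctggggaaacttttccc
Col3a1: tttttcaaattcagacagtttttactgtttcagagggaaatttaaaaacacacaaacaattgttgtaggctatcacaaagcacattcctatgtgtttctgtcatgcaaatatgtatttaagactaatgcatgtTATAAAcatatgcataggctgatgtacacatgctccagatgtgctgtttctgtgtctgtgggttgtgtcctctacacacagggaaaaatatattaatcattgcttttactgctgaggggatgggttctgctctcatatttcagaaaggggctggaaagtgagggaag
The Col1a2 window held 61.0% G and C and carries CCAAT and GGGCGG matches, while that of Col3a1 held 37.7% and carries a TATAAA match only. RefSeq windows were matched for 23 of the 34 genes. Of the 9 meningeal genes with one, 7 held CCAAT, 6 held GGGCGG and 1 held TATAAA in any window. The endothelial counts were 4, 4 and 3 of 9, the mural counts 1, 1 and 1 of 5. Over all 32851 mouse windows of this length the shares were 37.4%, 35.7% and 13.6%. A match describes letters in the window and shows no binding.

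The Cre comparison within the syn line asks what went with loss of EAAT2 in the line aimed at neurons. No endothelial, mural or meningeal member passed edgeR's test at an adjusted p of 0.05, where 1 of 19726 genes did (0.00507%) and 922 had an unadjusted p below 0.05. That 1 gene was Aqp4, the water channel of astrocyte endfeet (log2 fold change 0.55), which is not a member. At an unadjusted p below 0.05 there were 2 endothelial, 0 mural and 3 meningeal members, and DESeq2 and limma-voom each called 1, Mmp14. The median log2 fold change (Cre+ minus Cre−) was −0.04 over 13 endothelial genes, −0.01 over 8 mural genes and 0.31 over 13 meningeal genes, with −0.003 over all genes tested. It was above 0 for 4 of 13, 4 of 8 and 12 of 13 genes.

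Mmp14, a membrane-bound protease that cleaves collagen and activates other matrix proteases, came nearest. Its values were 15.5, 17.2, 16.0, 17.6, 15.3 and 17.8 CPM in syn Cre+ mice and 11.9, 10.3, 11.03, 12.6, 9.47 and 11.9 CPM in syn Cre− mice. All 6 Cre+ mice lay above all 6 Cre− mice, a separation seen for 0.203% of genes tested in this comparison. Fitted in edgeR, the Cre+ to Cre− contrast was 0.56 on the log2 scale (SE 0.11, 95% interval 0.34 to 0.78, adjusted p = 0.0697), which missed the threshold. DESeq2 gave 0.57 (adjusted p = 0.00219) and limma-voom with quality weights 0.55 (adjusted p = 0.0121). It also passed in edgeR with no low-count filter and with the groups fitted alone, so the call rests on the tool and its settings. Leaving out 1 library at a time gave 0.52 to 0.60, with an edgeR adjusted p of 0.0833 to 0.267. DESeq2 called 0.071% of genes and limma-voom 0.0355%.

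Kdr, the main VEGF receptor of endothelial cells, was the other member whose syn groups did not overlap. It stood at 15.4 to 16.9 CPM in syn Cre+ mice (median 15.7) and at 10.2 to 14.5 in syn Cre− mice (median 13.2). The log2 fold change was 0.31 (SE 0.11, edgeR adjusted p = 0.841). Ly6c1 (−0.28, SE 0.12, adjusted p = 1.00) and Emcn (0.23, SE 0.13, adjusted p = 1.00) were next among endothelial genes by edgeR's p.

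No mural gene had an unadjusted p below 0.05. The 3 with the smallest p were Rgs5 (log2 fold change 0.10, SE 0.07), Pdgfrb (0.10, SE 0.07) and the sparse Tagln (−0.64, SE 0.55), all with an edgeR adjusted p of 1.00. The 95% interval of Rgs5 ran from −0.03 to 0.24 and that of Pdgfrb from −0.05 to 0.24.

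Behind Mmp14 the meningeal genes with the smallest p were Lum, a keratan sulfate proteoglycan (0.49, SE 0.20, edgeR adjusted p = 0.998), and Col1a1 (0.56, SE 0.25, adjusted p = 1.00). Col1a1 ran from 4.00 to 12.2 CPM in syn Cre+ mice (median 5.27) and from 3.22 to 6.11 in syn Cre− mice (median 4.49). Without syn Cre+ 6, its value was 0.31 and the meningeal median 0.15. Without the 6 Ttr-rich libraries the median was −0.001. Col4a1 (−0.02, SE 0.09) and Col4a2 (0.05, SE 0.10), the steady collagens, had 95% intervals of −0.20 to 0.16 and −0.16 to 0.25. The 1 meningeal gene below 0 was Col4a1.

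The Cre comparison within the gfap line, aimed at astrocytes, also called no member, against 2 of 19726 genes (0.0101%) and 590 with an unadjusted p below 0.05. At that p there were 0 endothelial, 0 mural and 2 meningeal members, and DESeq2 and limma-voom called 0. All 13 endothelial genes had log2 fold changes above 0, though small, from 0.02 to 0.24 with a median of 0.07. Without gfap Cre+ 5 the median was 0.02. Mural genes had a median of 0.02, with 5 of 8 above 0, and meningeal genes a median of 0.39, with 11 of 13 above 0. The median over all genes was −0.003. No member had groups that did not overlap, a separation found for 0.198% of genes.

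Kdr was first among endothelial genes again, at 17.1 to 22.2 CPM in gfap Cre+ mice (median 20.3) and 11.4 to 21.7 in gfap Cre− mice (median 18.2), a log2 fold change of 0.19 (SE 0.11, edgeR adjusted p = 1.00). It was 0.09 without gfap Cre− 4, a library that was highest of its group for 28.9% and lowest for 27.8% of all genes. Cdh5, the adherens junction cadherin of endothelium, stood at 0.14 (SE 0.11), and Ly6c1 at 0.15 (SE 0.12), both with an adjusted p of 1.00. Among mural genes Vtn had the smallest p. It ran from 58.8 to 86.7 CPM in gfap Cre+ mice (median 72.3) and from 52.6 to 73.2 in gfap Cre− mice (median 62.6), a log2 fold change of 0.24 (SE 0.12, edgeR adjusted p = 1.00). Rgs5 (0.06, SE 0.07) and Pdgfrb (0.04, SE 0.07) followed. Abcc9, the sulfonylurea receptor subunit that pairs with Kcnj8 in pericyte channels, stood at −0.05 (SE 0.13) here and at −0.10 (SE 0.13) in the syn line. Vwf, the von Willebrand clotting factor of endothelium, had the highest endothelial log2 fold change of this arm, 0.24 (SE 0.19), with a wide error.

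Col3a1, a fibrillar collagen of soft tissue, had the widest meningeal contrast of this arm. It stood at 0.779 to 3.51 CPM in gfap Cre+ mice (median 1.91) and at 0.413 to 1.63 in gfap Cre− mice (median 0.793). The log2 fold change of 1.13 (SE 0.46, 95% interval 0.19 to 2.08, edgeR adjusted p = 1.00) did not pass, and 3 Cre+ mice lay inside the Cre− range. Bgn, a small proteoglycan bound to collagen, stood at 0.43 (SE 0.20) and Lum at 0.39 (SE 0.20), with adjusted p of 1.00. Without gfap Cre+ 3, Col3a1 was at 0.88 and the class median at 0.20.

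**Figure D3:**
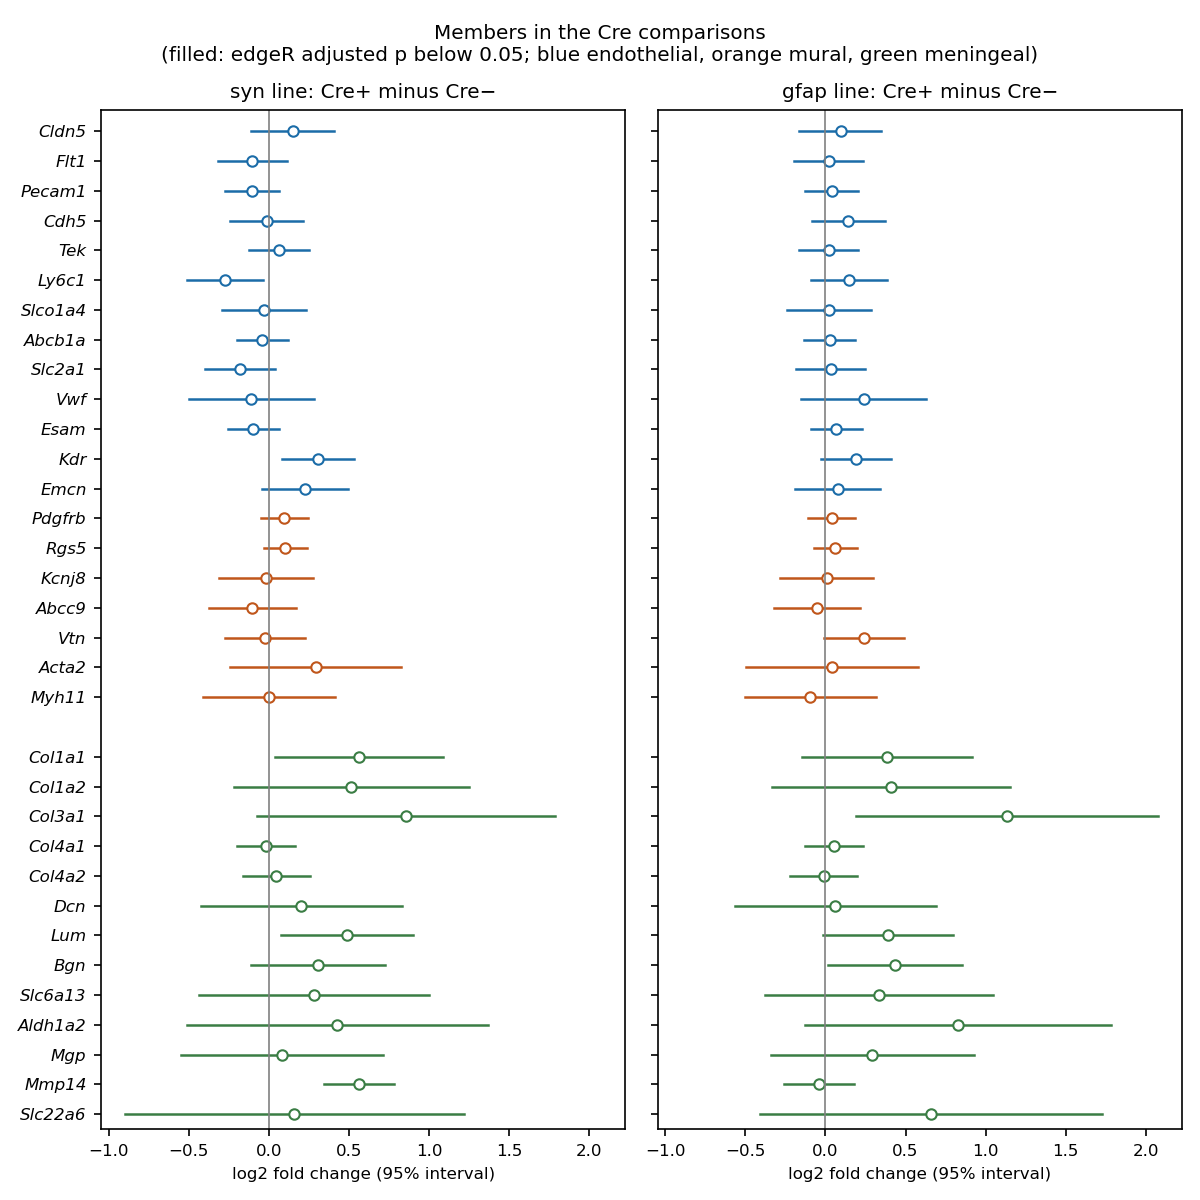
Log2 fold change (x axis, Cre+ minus Cre−) with its 95% interval for 33 genes (y axis; Tagln is not drawn) in the syn line (left) and the gfap line (right); filled points would mark an edgeR adjusted p below 0.05. No point is filled, endothelial and mural points lie near 0, and meningeal intervals are wide except for Col4a1, Col4a2 and Mmp14.

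Whether the arms differed was tested as the difference between the Cre contrasts, and no member passed, against 2 of 19726 genes (0.0101%) and 691 with an unadjusted p below 0.05. At that p there were 1 endothelial, 0 mural and 1 meningeal member, and DESeq2 and limma-voom called 0. Class medians were −0.13 for endothelial, 0.01 for mural and −0.05 for meningeal genes. Mmp14 had the smallest p of the 34, with 0.56 in the syn line, −0.04 in the gfap line and a difference of 0.60 (SE 0.15, 95% interval 0.29 to 0.91, edgeR adjusted p = 1.00). In the gfap line its groups overlapped, at 10.1 to 17.5 CPM in Cre+ mice (median 12.6) and 10.8 to 16.3 in Cre− mice (median 14.1). Slc22a6 (−0.50, SE 0.72) and Aldh1a2 (−0.40, SE 0.64) followed among meningeal genes. With single libraries left out, Slc22a6 ran from −0.94 (without syn Cre+ 5) to −0.08 (without syn Cre− 4) and Aldh1a2 from −0.73 (without syn Cre+ 6) to −0.04 (without syn Cre− 4). The endothelial genes with the smallest p were Ly6c1 (−0.42, SE 0.16), Esam, an endothelial adhesion molecule (−0.16, SE 0.11), and Slc2a1 (−0.21, SE 0.15). The mural ones were Vtn (−0.27, SE 0.17), Acta2 (0.25, SE 0.37) and Tagln (−0.47, SE 0.76). All these had an edgeR adjusted p of 1.00.

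Lists of further genes of the same cells gave the same counts. Of 30 further endothelial, 24 further mural and 46 further meningeal genes tested, 0 passed edgeR's test in the syn contrast, the gfap contrast or their difference. At an unadjusted p below 0.05 there were 2, 3 and 4 in the syn contrast, 2, 2 and 1 in the gfap contrast and 2, 2 and 2 in the difference. The smallest adjusted p of these lists in the syn contrast was that of Mcam, an adhesion molecule of vessel walls (log2 fold change 0.34, SE 0.09, adjusted p = 0.415).

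The lines were then compared within each Cre state, syn minus gfap, in different mice each time: 12 Cre− mice, all EAAT2+/+, and 12 Cre+ mice. Each group also serves in a Cre comparison above. Here the lines differed widely. The share of reads without a feature also separated them, at 7.52% to 11.09% in syn and 4.47% to 6.37% in gfap libraries, with syn Cre− 5 highest, and its part in the line differences was not tested. In the Cre− mice 31.2% of all genes passed (14.6% higher and 16.6% lower in syn), in the Cre+ mice 27.5% (12.8% higher and 14.7% lower). Line, genetic background and anything handled together with a line cannot be told apart.

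Every endothelial gene that passed between lines was lower in syn. Of 13, 6 passed in the Cre− mice, with a class median log2 fold change of −0.23, and 3 were above 0: Ly6c1 (0.07), Slc2a1 (0.14) and Vwf (0.01), none of which passed. The 6 are 46.2% of the class, against 16.6% of all genes called lower. In the Cre+ mice 8 passed (61.5%, against 14.7%), all lower, with a median of −0.32 and all 13 below 0. Without the 6 Ttr-rich libraries 0 endothelial genes passed in Cre− and 3 in Cre+ mice, and the class medians were −0.13 and −0.29. In that fit 18.1% and 11.2% of all genes passed. With all libraries, the medians over all genes were −0.02 in both Cre states. Cldn5, Pecam1, Tek, Abcb1a and Kdr passed in both, 5 of the 6 called in Cre− mice and 5 of the 8 called in Cre+ mice. Emcn passed in Cre− mice, and Esam, Flt1 and Ly6c1 in Cre+ mice; whether those differences depend on Cre was tested above as the difference of the Cre contrasts, which no member passed.

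Kdr had the smallest p in the Cre− mice. Its syn Cre− values, 10.2 to 14.5 CPM (median 13.2), lay below all gfap Cre− values except that of replicate 4, in a range of 11.4 to 21.7 CPM (median 18.2). The log2 fold change was −0.43 (SE 0.11, edgeR adjusted p = 0.00369). In the Cre+ mice it was −0.32 (SE 0.11, adjusted p = 0.0274), and the groups did not overlap, at 15.4 to 16.9 against 17.1 to 22.2 CPM. Flt1, the decoy-like VEGF receptor, did not overlap there either, at 46.1 to 56.2 CPM in syn and 60.1 to 72.0 in gfap mice (−0.37, SE 0.11, adjusted p = 0.0111). Kdr and Flt1 were the only endothelial genes separated between lines, and only in Cre+ mice. Such separation was found for 13.3% of all genes in the Cre+ mice and 11% in the Cre− mice.

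Cldn5 stood at 17.7 to 29.6 CPM in syn Cre− mice (median 22.0) and at 20.5 to 36.2 in gfap Cre− mice (median 33.7), a log2 fold change of −0.44 (SE 0.13, edgeR adjusted p = 0.00957). In the Cre+ mice it was −0.39 (SE 0.13, adjusted p = 0.0225). Abcb1a, the efflux pump P-glycoprotein, stood at −0.27 (SE 0.08, adjusted p = 0.00900) and −0.34 (SE 0.08, adjusted p = 0.00216). Pecam1, an adhesion molecule of endothelial junctions, stood at −0.23 (adjusted p = 0.0335) and −0.37 (SE 0.08, adjusted p = 0.00141), the smallest endothelial p among Cre+ mice. Tek, the angiopoietin receptor, stood at −0.31 and −0.27. Carriers of the barrier did not all share this: Slc2a1 was at 0.14 (SE 0.11) and −0.07 (SE 0.11), and Slco1a4, an organic anion carrier, at −0.04 and −0.09 (SE 0.13 each), and neither passed.

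The endothelial calls varied in how they held when single libraries or settings changed, and all Cre− calls were lost without the Ttr-rich libraries. Kdr, Abcb1a, Cldn5 and Tek in Cre− mice, and Pecam1, Flt1 and Abcb1a in Cre+ mice, passed with each single library left out and under every other scaling, filter and tool tried on all libraries. Of these, Pecam1 and Abcb1a in Cre+ mice also passed without the Ttr-rich libraries. Pecam1 in Cre− mice lost its call without any 1 of syn Cre− 3, 4, 5 and 6 and gfap Cre− 2, 5 and 6 (adjusted p up to 0.0801), and Emcn without any 1 of syn Cre− 2, 3 and 6 and gfap Cre− 3, 4 and 6 (up to 0.117). In Cre+ mice, leaving out gfap Cre+ 5 left 3 of the 8 calls, and ended those of Esam (adjusted p = 0.0588), Cldn5 (0.0659), Ly6c1 (0.0893), Kdr (0.0902) and Tek (0.0542). Without that library 20.7% of all genes passed, against 27.5% with all libraries. Cldn5 also lost its call without syn Cre+ 4 or gfap Cre+ 2 or 3, Ly6c1 without syn Cre+ 1 or gfap Cre+ 4, Kdr without syn Cre+ 6 or gfap Cre+ 3 or 4, and Tek without syn Cre+ 1 or 6 or gfap Cre+ 1. Replicate gfap Cre+ 5 was the highest of its group for 8 of 13 endothelial genes.

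Of 8 mural genes 1 passed in each Cre state, Rgs5 in Cre− and Vtn in Cre+ mice. Rgs5 was lower in the syn line among Cre− mice, at 82.0 to 104.3 CPM (median 92.7) against 94.2 to 115.4 (median 109.4), a log2 fold change of −0.21 (SE 0.07, edgeR adjusted p = 0.0152). Among Cre+ mice it was −0.17 (SE 0.07, adjusted p = 0.0506). Vtn passed among Cre+ mice, at 45.5 to 73.6 CPM (median 50.7) against 58.8 to 86.7 (median 72.3), −0.36 (SE 0.12, adjusted p = 0.0281), and stood at −0.10 (SE 0.12) among Cre− mice. Kcnj8, a potassium channel subunit of pericytes, was next, at −0.26 (SE 0.14, adjusted p = 0.176) and −0.28 (SE 0.14, adjusted p = 0.143). Myh11 (−0.29, SE 0.20) was the third by p among Cre− mice. The share of 12.5% stands near the 16.6% and 14.7% of all genes called lower. In Cre+ mice limma-voom called 3 of 8 (Vtn, Rgs5 and Kcnj8), where it called 31.2% of all genes. Rgs5 lost its Cre− call without gfap Cre− 5 (adjusted p = 0.0571) and passed among Cre+ mice without syn Cre+ 2, 3 or 4 (0.0363 to 0.0471). Vtn lost its call without any 1 of syn Cre+ 1 to 4 and gfap Cre+ 3 to 5 (0.0564 to 0.0878).

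Meningeal genes went the other way for a collagen pair. Col4a1 and Col4a2 were higher in the syn line and did not overlap between lines in either Cre state, as the plot of vascular and matrix genes shows. They are 2 of 13 meningeal genes, where 11% of all genes in Cre− and 13.3% in Cre+ mice did not overlap. Col4a2 stood at 66.1 to 87.9 CPM in syn Cre− mice (median 75.6) against 40.2 to 59.8 in gfap Cre− mice (median 54.3), a log2 fold change of 0.55 (SE 0.10, edgeR adjusted p = 0.000341). Among Cre+ mice it stood at 63.4 to 84.0 CPM (median 81.7) against 39.5 to 58.0 (median 54.7), 0.61 (SE 0.10, adjusted p = 0.000172). Col4a1 was at 54.1 to 68.6 against 35.4 to 51.2 CPM in Cre− mice, 0.45 (SE 0.09, adjusted p = 0.000524). In Cre+ mice it was at 54.2 to 63.7 against 37.3 to 52.6 CPM, 0.38 (SE 0.09, adjusted p = 0.00297).

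These 2 genes encode chains of the same basement membrane collagen, which endothelial and mural cells make as well as fibroblasts. They lie head to head on chromosome 8, with RefSeq starts 21 bases apart, at 11312826 for Col4a1 on the minus strand and 11312805 for Col4a2 on the plus strand. Their printed windows, Col4a1 at chr8:11312777-11313076 (minus strand) and Col4a2 at chr8:11312555-11312854 (plus strand), GRCm38.p6, share 78 bases. Capitals mark that shared stretch, which reads in opposite directions in the lines below.
Col4a1: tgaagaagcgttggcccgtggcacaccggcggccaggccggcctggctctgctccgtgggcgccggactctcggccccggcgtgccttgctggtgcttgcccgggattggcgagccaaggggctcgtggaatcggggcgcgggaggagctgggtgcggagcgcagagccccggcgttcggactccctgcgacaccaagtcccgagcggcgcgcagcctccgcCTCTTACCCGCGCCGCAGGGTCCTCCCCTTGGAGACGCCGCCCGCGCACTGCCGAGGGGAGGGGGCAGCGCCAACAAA
Col4a2: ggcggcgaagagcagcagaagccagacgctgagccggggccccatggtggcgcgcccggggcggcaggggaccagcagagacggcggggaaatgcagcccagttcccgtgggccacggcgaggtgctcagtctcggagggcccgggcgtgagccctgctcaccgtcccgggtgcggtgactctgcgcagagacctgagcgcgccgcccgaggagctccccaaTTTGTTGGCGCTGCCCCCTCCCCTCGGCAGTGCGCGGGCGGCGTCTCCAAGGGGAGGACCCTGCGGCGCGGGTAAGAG
Both windows are rich in G and C, at 74.0% and 73.7%, against a median of 52.7% over all windows. The sources used here do not give the strand setting of the counting, and reads from the short stretch where the genes overlap could fall to either.

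Mmp14 was the third meningeal gene that passed, in opposite directions: lower in syn among Cre− mice (−0.28, SE 0.11, edgeR adjusted p = 0.0448) and higher in syn among Cre+ mice (0.32, SE 0.11, adjusted p = 0.0263). The gap between these is the difference of 0.60 tested above. The Cre− call was lost without any 1 of syn Cre− 2, 3 and 5 and gfap Cre− 1, 2, 5 and 6 (adjusted p up to 0.114) and under DESeq2, which called 31.4% of all genes there (limma-voom 28.7%), and the Cre+ call without syn Cre+ 4 (0.0535) or gfap Cre+ 4 (0.0773). DESeq2 kept the Cre+ call, with 26.4% of all genes called. So 3 of 13 meningeal genes, 23.1%, passed in each Cre state, where edgeR called 31.2% of all genes in Cre− and 27.5% in Cre+ mice. These 3 are the steady set described above, and no variable meningeal gene passed. The class median was 0.32 in Cre− mice, and 0.01 without syn Cre− 4. In Cre+ mice it was 0.09, −0.16 without syn Cre+ 6 and 0.30 without gfap Cre+ 3, so its sign rests on single mice. Without the Ttr-rich libraries the median was −0.47, but these are all syn and include syn Cre+ 5 and 6, high for many meningeal genes. Both collagens kept their calls with each single library left out. Col1a1 was next in Cre+ mice (0.58, SE 0.25, adjusted p = 0.0943).

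**Figure D4:**
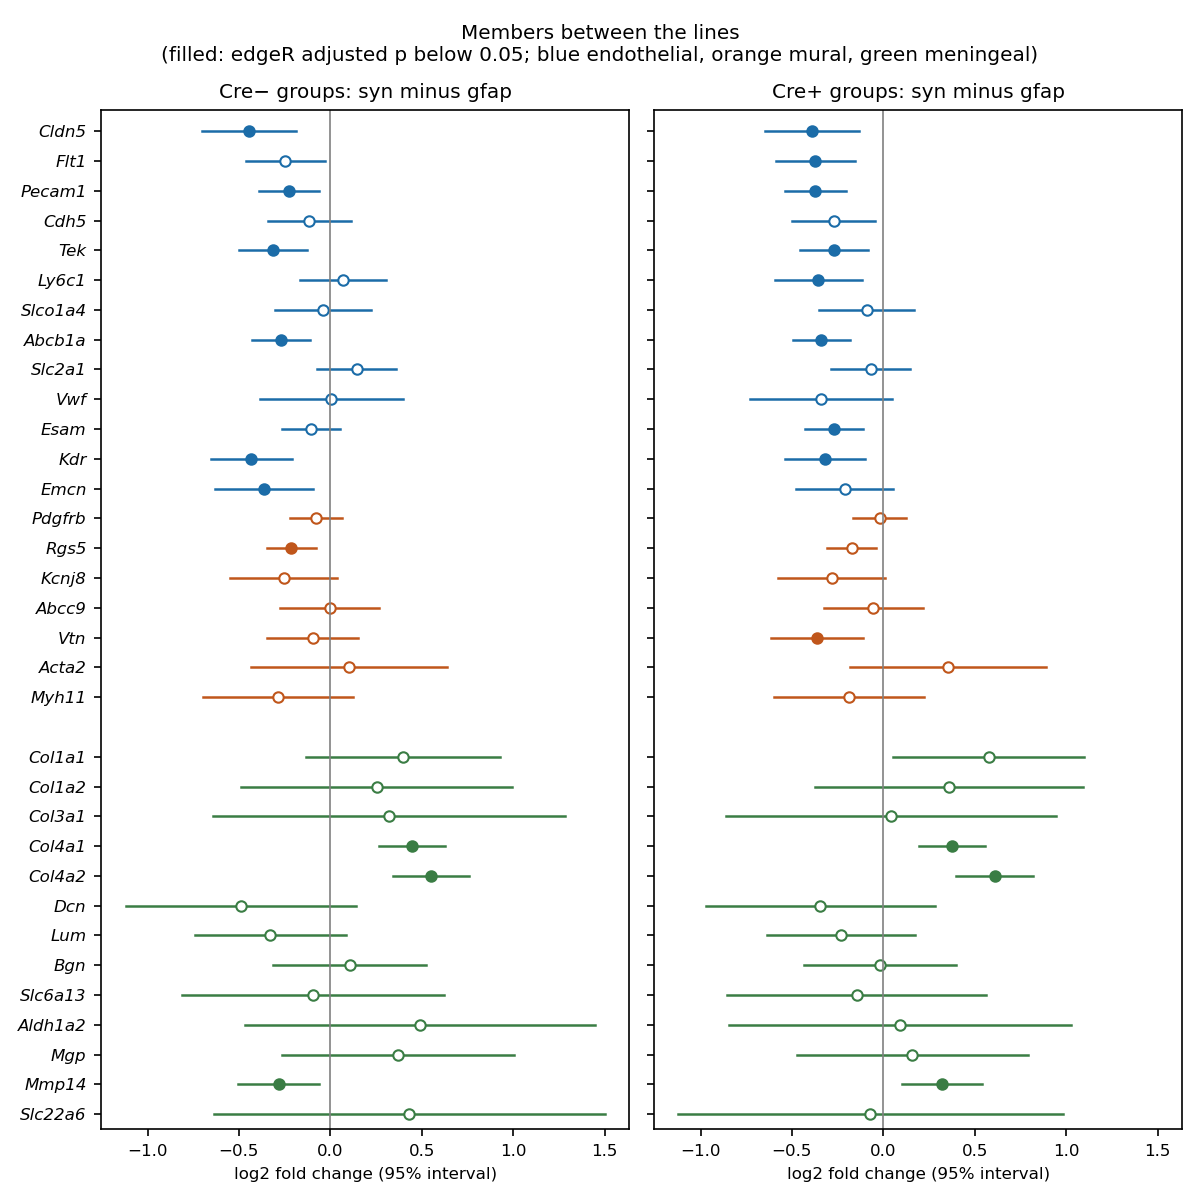
Log2 fold change (x axis, syn minus gfap) with its 95% interval for 33 genes (y axis; Tagln is not drawn) in Cre− mice (left) and Cre+ mice (right); filled points mark an edgeR adjusted p below 0.05. Filled endothelial points, 6 on the left and 8 on the right, lie below 0, Col4a1 and Col4a2 lie above 0 on both sides, and Mmp14 changes side.

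**Figure D5:**
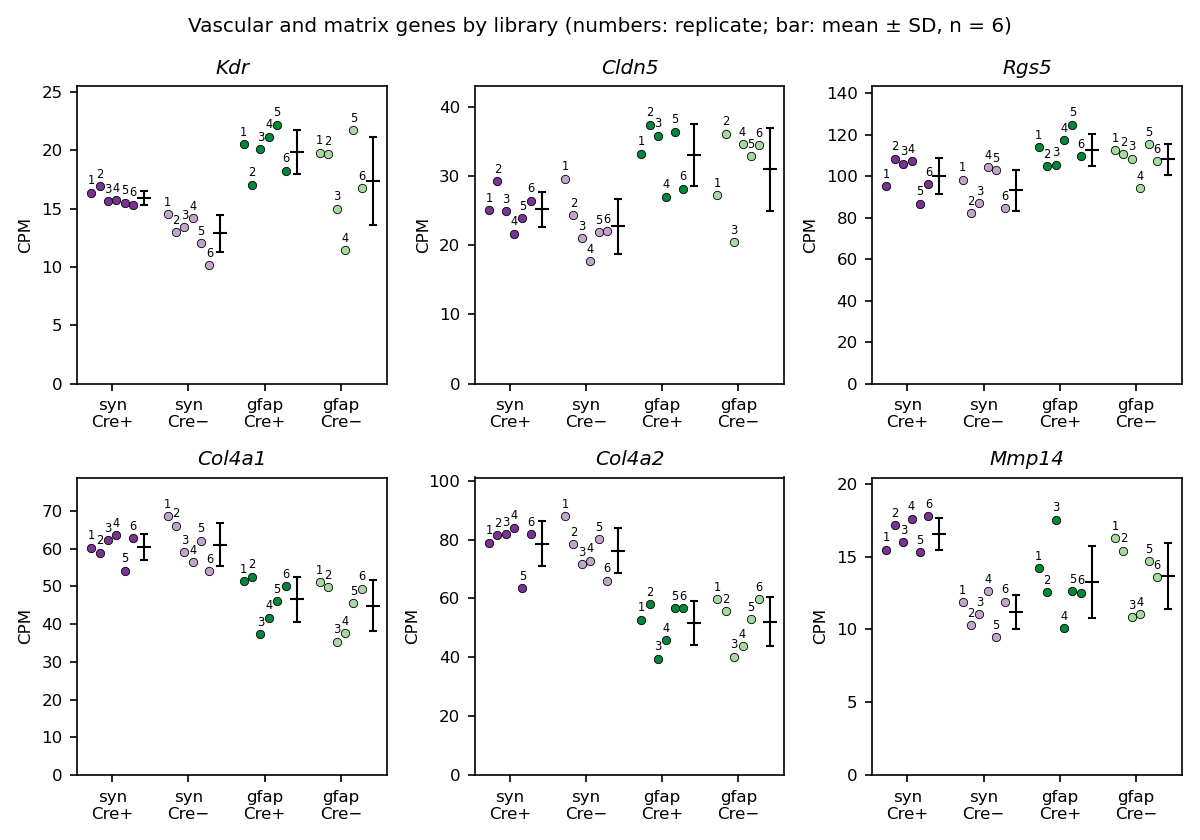
CPM (y axis) of 6 genes in each library, by group (x axis); numbers are replicates and bars give mean ± SD (n = 6). Col4a1 (54.1 to 68.6 CPM in syn, 35.4 to 52.6 in gfap libraries) and Col4a2 do not overlap between lines, Mmp14 is separated between Cre states in the syn line, and Kdr has its lowest group median in syn Cre− mice.

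Further genes of the same cells were counted in the same way. Of 30 further endothelial genes 6 passed among Cre− mice and 9 among Cre+ mice, all lower in syn. The smallest p among Cre− mice were those of the transcription factor Erg (−0.43, SE 0.11), the fenestral protein Plvap (−0.34, SE 0.10) and the monocarboxylate carrier Slc16a1 (−0.24, SE 0.08). Among Cre+ mice they were those of the sialomucin Podxl (−0.31, SE 0.08), the chemokine Cxcl12 (−0.26, SE 0.08) and the transcription factor Foxq1 (−0.49, SE 0.15). Their shares called lower were 20% and 30%, against 16.6% and 14.7% of all genes, while 0 of them were called higher, against 14.6% and 12.8%.

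Of 24 further mural genes 2 were higher and 2 lower among Cre− mice, and 3 higher and 1 lower among Cre+ mice. That is 16.7% called in each Cre state, against 31.2% and 27.5% of all genes. Mylk, the myosin light chain kinase (−0.34 and −0.29), and the smooth muscle protein smoothelin, Smtn (0.43 and 0.35), passed in both and went opposite ways. Which cells their reads came from was not tested. Mcam passed among Cre+ mice (0.65, SE 0.09) and Lmod1, an actin nucleator of smooth muscle, among Cre− mice (0.62, SE 0.19). The other gene lower among Cre− mice, named after its values were seen, was Pdgfb (−0.19, SE 0.07). It encodes a ligand of the Pdgfrb receptor and is no marker of mural cells.

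Of 46 further meningeal genes 10 were higher and 0 lower in syn among Cre− mice, and 8 were higher and 1 lower among Cre+ mice. That is 21.7% and 19.6% called, below the 31.2% and 27.5% of all genes in either direction, where 14.6% and 12.8% of all genes were called higher. Those with the smallest p included the collagens Col5a1 (1.46, SE 0.21, and 1.06, SE 0.21), Col6a2 (0.68, SE 0.14, and 0.47, SE 0.14) and Col5a2 (0.69, SE 0.17, and 0.74, SE 0.17). P4ha2, a collagen-modifying enzyme, stood at 0.41 and 0.28. Sparc, a collagen-binding matrix protein, was the 1 lower gene, among Cre+ mice (−0.27, SE 0.06). Besides Col5a1, Col5a2, Col6a2 and P4ha2, Col6a3 (1.07, SE 0.35, and 1.14, SE 0.35) and Col8a1 (3.498, SE 0.96, and 2.81, SE 0.94) passed in both Cre states. Igf2 and Slc13a4 were among those higher in Cre− mice. Igf2 stood at 107.6 to 225.8 CPM in the 6 Ttr-rich libraries and at 30.7 to 44.7 in the other syn libraries. Slc13a4 stood at 16.1 to 38.2 CPM against 2.45 to 4.76. These 4 genes are named after their values were seen. How this list stands without the Ttr-rich libraries was not tested.

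Markers of other cell types and of some regions also differed between lines. Genes counted here as higher or lower are those that passed. Over all genes, 31.2% passed in Cre− and 27.5% in Cre+ mice. All 16 choroid plexus epithelial genes were above 0 in both Cre states, and 16 passed in Cre− and 14 in Cre+ mice (median log2 fold changes 3.76 and 3.09). Their summed level was 290.2 to 6955 CPM in syn Cre+, 324.7 to 7484 in syn Cre−, 227.7 to 544.4 in gfap Cre+ and 219.2 to 462.8 in gfap Cre− mice, and none was at 0 throughout a group. Of 8 genes of the oligodendrocyte lineage 5 were higher and 2, Pdgfra and Cspg5, lower among Cre− mice (median 0.29), and 6 were higher and 1, Pdgfra, lower among Cre+ mice (median 0.51). Median values were, for ependymal markers, 1.69 and 1.62, and for neuronal markers −0.22 and −0.20. All 7 neuronal genes were below 0 in both Cre states, and 6 of 7 and 4 of 7 passed. Of 11 border macrophage genes 3 were higher in syn among Cre− mice and 0 passed among Cre+ mice. The microglial receptor gene P2ry12 was lower in both (−0.34 and −0.43), 1 of 6 microglial genes in Cre− and with Csf1r 2 of 6 in Cre+ mice. Of 7 blood cell genes, all above 0 in both Cre states, 3 passed among Cre− mice (Hbb-bs, Alas2 and S100a8) and 1, Alas2, among Cre+ mice. Of 7 astrocyte genes 1 was higher (Gfap) and 2 lower among Cre− mice, and 2 were higher (Gfap and Aqp4) and 3 lower among Cre+ mice. Among 6 cerebellar genes 2 were lower in Cre− mice, and 3 were higher and 2 lower in Cre+ mice. Of 5 cortical genes 1 passed in Cre− and 0 in Cre+ mice, and of 6 striatal genes 0 in both. Hippocampus had 2 of 6 in both, thalamus and midbrain 1 and 2 of 6, and olfactory bulb 1 and 3 of 3.

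The line comparisons were also fitted without the 6 Ttr-rich syn libraries, which leaves 3 syn mice in each Cre state. That cut takes out syn Cre+ 5 and 6 and syn Cre− 4, which were high for many meningeal genes. It keeps gfap Cre+ 3 and gfap Cre− 5, which were high for them too. A lower meningeal value in syn in this fit therefore cannot be told apart from this choice of libraries. Among Cre− mice, where 0 endothelial genes passed, Kdr was at −0.38, Tek at −0.33, Cldn5 at −0.27 and Pecam1 at −0.13. Among Cre+ mice the 3 that passed were Pecam1, Abcb1a and Ly6c1. Col4a1 and Col4a2, higher in syn, passed in both Cre states without these libraries. Lum also passed in both, but was lower in syn. With all libraries Lum passed in neither (edgeR adjusted p = 0.218 and 0.41). Its values were 2.20 to 3.47 CPM in the kept syn Cre− mice against 4.07 to 5.38 in gfap Cre− mice. In the kept syn Cre+ mice they were 3.52 to 4.39 CPM, against 4.75 to 7.6 in gfap Cre+ mice. Mmp14 passed in neither (edgeR adjusted p = 0.0921 and 0.120). Vtn kept its Cre+ call and Rgs5 lost its Cre− call (adjusted p = 0.106). With them left out, 18.1% and 11.2% of all genes passed. What part tissue composition has in the line differences was not tested.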

How the data were processed

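RNA was taken from the brains of 24 mice and sequenced on an Illumina instrument, per the labels' protocols. The authors deposited whole-number read counts per gene for each library. The submitters' processing notes list mm10, DESeq2 1.6.3, HISAT2 and HTSeq 0.6.0, with no role or order. The sources used here do not give the annotation release or strand setting. Of 52636 gene identifiers, 52489 (99.7%) matched a symbol of the GENCODE M21 names. Summary lines that name no gene were left out of library sizes. Reads without a feature were 4.47% to 11.1% of all reads in a library, ambiguous reads 3.19% to 7.46%, unaligned reads 1.42% to 4.71% and multiply aligned reads 13.7% to 15.6%.

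Gene counts were fitted with edgeR 4.0.16 in R 4.3.3: TMM scaling, filterByExpr, 1 robust quasi-likelihood model of the 4 groups (20 residual degrees of freedom) and Benjamini-Hochberg adjustment over 19726 genes, with calls at an adjusted p below 0.05. CPM use the scaled library sizes. Alternatives were DESeq2 1.42.0, limma 3.58.1 (voom with quality weights), RLE and upper-quartile factors, no filter or at least 1 CPM in 6 libraries, the compared groups alone, and each library left out. Leaving out the 6 libraries with Ttr above 1000 CPM was chosen after seeing the data. The steps were tested on simulated data.

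The genes and lists were chosen with earlier results of these data known. By the rule for naming genes, every member called is named, as are the 3 members of each class and up to 3 genes of each further list with the smallest unadjusted p in a comparison; members named beyond that were chosen after their values were seen. Labels give no batch, and nothing in them pairs libraries across groups or says how the tissue was cut. Libraries are labelled as separate samples of 1 group, and p-values measure the spread between them. Promoter windows and motif matches come from RefSeq, GRCm38.p6; a gene with several windows counted as holding a motif where any did.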

Additional observations from a re-analysis of the deposited data

Results flagged for a closer look

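In 10 of 136 sets of 6 values (34 genes in 4 groups) 1 mouse stood apart from the other 5 by Dixon's test, where chance alone gives about 6.8. Meningeal genes made up 7 of the 10, in 3 mice. In syn Cre− 4, Aldh1a2 was 9.44 CPM with the next value at 4.91, Slc22a6 was 6.93 CPM with the next at 2.79, Col1a2 was 12.9 CPM (12.85) with the next at 7.40, and Bgn was 17.1 CPM with the next at 11.7. In gfap Cre− 5, Aldh1a2 was 6.39 CPM with the next at 3.27, and Slc22a6 was 4.52 CPM with the next at 2.24. Replicate syn Cre+ 5 had the lowest Col4a2 of its group, 63.4 CPM with the next at 78.9.

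The other 3 sets were vascular. Tek was high in gfap Cre+ 1, at 15.6 CPM (15.59) with the next at 12.8. Vwf, the endothelial clotting factor, was low in gfap Cre− 4, at 12.4 CPM with the next at 18.1. Kcnj8 was low in gfap Cre− 3, at 2.63 CPM with the next at 3.60. No member's Cre contrast differed between lines at an adjusted p below 0.05 in edgeR's test.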

How the results depend on the processing

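No paired analysis was possible because replicate numbers follow accession order and the labels pair no libraries. In the syn contrast 1 meningeal member, Mmp14, passed with no low-count filter, under DESeq2, under limma-voom and with the groups fitted alone, against 0; over all genes these settings called 5, 14, 7 and 2, and 3 passed without the Ttr-rich libraries, against 1. Endothelial calls between Cre− lines fell from 6 to 0 without the Ttr-rich libraries, and ran from 4 to 7 with single libraries left out. The shares of all genes called there were 31.2%, 18.1% and 24.5% to 31.9%. Mural calls there fell from 1 to 0 with at least 1 CPM in 6 libraries, with the groups fitted alone and without the Ttr-rich libraries, and ran from 0 to 1 with single libraries left out. The CPM filter called 31.6% of all genes there and the groups fitted alone 23%. Endothelial calls between Cre+ lines numbered 8, against 5 with upper-quartile factors, 5 with at least 1 CPM in 6 libraries, 3 without the Ttr-rich libraries and 3 to 8 with single libraries left out. The shares of all genes called were 27.5%, against 22.5%, 26%, 11.2% and 19.9% to 26.3% in the same order. Mural calls there numbered 1, against 0 with upper-quartile factors, with at least 1 CPM in 6 libraries and with the groups fitted alone, 3 under limma-voom (Vtn, Rgs5 and Kcnj8), and 0 to 1 with single libraries left out. The groups fitted alone gave 27.9% of all genes called there and limma-voom 31.2%. Meningeal calls between lines ran from 2 to 3 in Cre− and 2 to 4 in Cre+ mice with single libraries left out. Without the Ttr-rich libraries the meningeal median between Cre+ lines was −0.47, against 0.09, and 3647 and 2259 genes passed between Cre− and Cre+ lines, against 6161 and 5416. Those libraries are all syn and include syn Cre+ 5 and 6, which were high for many meningeal genes. Signs turned for Pdgfrb in the gfap contrast (0.04, but −0.016 under limma-voom, and −0.024, without gfap Cre− 4, to 0.085 with single libraries left out) and for Tagln in the difference of contrasts (−0.47, with −0.831 to 0.075, the latter without gfap Cre+ 4, with single libraries left out), neither of which passed. The fit without the Ttr-rich libraries has 6 libraries fewer; otherwise the cause was not tested. Depth limits Tagln most, with 157 counts over 24 libraries.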
